A study of Mus musculus with 6 samples.

Results

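Cytosolic heat shock proteins of the HSP70, HSP110 and HSP90 families, the HSP60 and HSP10 chaperonin pair, the J-domain proteins (DNAJ) and the BAG nucleotide exchange factors were followed across the cell types of mouse aorta and between diets. The genes were taken by a rule on their symbols, which was set with earlier results of these data known. Of the 27998 genes counted, 63 met the rule: 9 of the HSP70 family, 3 of the HSP110 family, 2 of the HSP90 family, 2 chaperonin genes, 4 DNAJA, 11 DNAJB, 26 DNAJC and 6 BAG genes. Symbols of 6 chaperones of the endoplasmic reticulum (Hspa5, Hspa13, Dnajb9, Dnajb11, Dnajc3 and Dnajc10) were left out by that rule. The name "cytosolic" does not cover all of the 63: 13 were assigned to the cytosol and 36 to no compartment, while 9 encode proteins of the mitochondrion (Hspa9, Hspd1, Hspe1, Dnaja3, Dnajc4, Dnajc11, Dnajc15, Dnajc19 and Dnajc30) and 5 encode proteins anchored in the membrane of the endoplasmic reticulum (Dnajb12, Dnajb14, Dnajc1, Dnajc14 and Dnajc16). The aortas came from C57B/6J mice aged 18 weeks on a high-fat diet or on a normal diet, which is the control. There were 3 samples in each group, and single cells were counted by droplet capture with unique molecular identifiers (UMIs), each of which stands for 1 captured transcript. All 6 samples were aortic cell suspensions made by collagenase digestion, and the labels name no transgene or mutant allele. Whether a sample is 1 mouse or a pool is not labelled, and p-values therefore reflect the spread among the samples, which may be technical.

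HSP70 proteins bind exposed hydrophobic stretches of unfolded proteins and release them in a cycle of ATP binding and hydrolysis. J-domain proteins deliver the clients and start the hydrolysis, whereas HSP110 and BAG proteins exchange the nucleotide and so reset the cycle. HSP90 takes over late folding intermediates such as kinases and steroid receptors, and HSP60 with its lid HSP10 encloses proteins inside mitochondria. Many of these genes are targets of heat shock factor 1, which binds alternating repeats of the bases GAA and TTC called heat shock elements.

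The files held 62838 cells and 41388034 to 83886418 UMIs per sample. Cells were assigned to a type by markers that contain no chaperone gene, and 45146 cells (77.8% of those kept, 64.9% in control 1 to 84.5% in high-fat diet 3) found a type. In all 9 types with at least 20 cells in every sample, each defining marker stood higher in its own cells than in the mean of the other types, as the gate requires. The 4 main types held 343, 343 and 703 endothelial-like, 1942, 1293 and 1727 smooth-muscle-like, 3444, 2433 and 3008 fibroblast-like and 774, 460 and 1453 macrophage-like cells in high-fat diet samples 1, 2 and 3. The controls held 183, 264 and 430 endothelial-like, 1176, 1670 and 1165 smooth-muscle-like, 1850, 5144 and 1243 fibroblast-like and 518, 2157 and 804 macrophage-like cells. Control 1 lay within the range of the high-fat diet samples in a measure outside the chaperones, where the other controls did not. With all kept cells pooled, ribosomal protein transcripts took 18.5%, 14.8% and 15.4% of UMIs in high-fat diet samples 1, 2 and 3, against 16.2%, 23.3% and 24.4% in controls 1, 2 and 3. In another measure control 2 alone lay within that range. The median mitochondrial percentage of the deposited cells was 5.25, 5.18 and 7.07 in high-fat diet samples 1, 2 and 3, against 4.81, 5.49 and 4.44 in controls 1, 2 and 3. Pairs of samples shared 61 to 260 cell barcodes. Raw UMI counts were summed over the cells of a type in each sample, and levels are counts scaled to library size (CPM) within the model of that type, so they are compared between diets and not between genes or between types.

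Together the 63 genes took a larger share of the UMIs in the high-fat diet samples than in the controls in each of the 4 main types. In smooth-muscle-like cells the share was 0.610%, 0.741% and 0.764% in high-fat diet samples 1, 2 and 3, against 0.438%, 0.457% and 0.364% in controls 1, 2 and 3. In endothelial-like cells it was 0.637%, 0.729% and 0.742% in the high-fat diet samples, against 0.515%, 0.446% and 0.432% in the controls. In macrophage-like cells it was 0.582%, 0.721% and 0.678% in the high-fat diet samples, against 0.515%, 0.393% and 0.354% in the controls. High-fat diet 1 was the lowest of its group in all 4 types, and control 1 was the highest control in all of them but smooth-muscle-like cells. In fibroblast-like cells the lowest high-fat diet share was 0.489% and the highest control share 0.421%. With all kept cells pooled, the share was 0.558%, 0.662% and 0.650% in the high-fat diet samples, against 0.454%, 0.400% and 0.388% in the controls. Each sample joins cells from 2 gel-bead wells, and within each of these 4 types every high-fat diet well had a share above every control well, the closest pair being 0.543% for high-fat diet 1 (its well 2) and 0.530% for control 1 (its well 1), both in macrophage-like cells. In a share, more chaperone transcripts and fewer transcripts of other genes cannot be told apart.

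**Figure D1:**
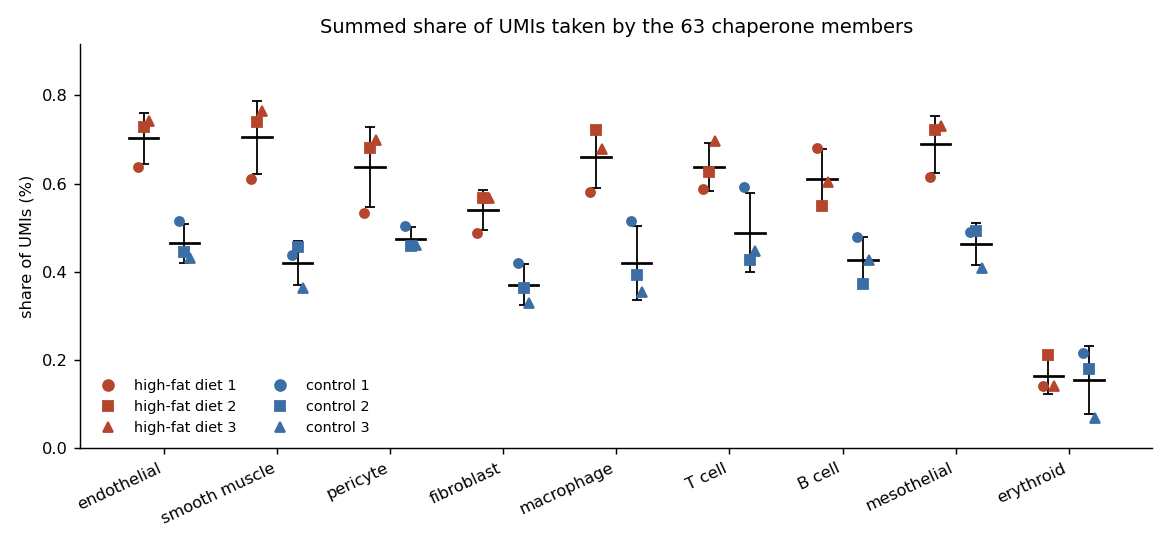
Share of all UMIs (%, y axis) taken by the 63 chaperone and partner genes in each sample, for the 9 cell types tested (x axis), with high-fat diet samples in red left of the controls in blue; bars show the mean and SD of 3 samples. In endothelial-, smooth-muscle-, fibroblast- and macrophage-like cells every high-fat diet sample lies above every control, whereas the groups overlap in T-cell-like and erythroid cells.

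Gene by gene, no member passed the test in any of the 4 main types. The test was the edgeR quasi-likelihood test on the sums, with Benjamini-Hochberg adjustment over all genes tested and a threshold of 0.05, and the p-values of the diet comparisons below come from it. Of the 63 members, 50 passed the filter on low counts in endothelial-like, 55 in smooth-muscle-like, 55 in fibroblast-like and 52 in macrophage-like cells. The counts with an unadjusted p under 0.05 were 12, 16, 10 and 9 in that order of types, beside 11.3%, 9.39%, 11.0% and 7.73% of all genes tested. DESeq2 called 5, 7, 4 and 3 members, beside 0.578%, 0.703%, 1.58% and 0.524% of all genes to which it gave an adjusted p. The test called few genes of any kind: 0.0722% of all genes tested in endothelial-like, 0.0% in smooth-muscle-like, 0.0444% in fibroblast-like and 0.0% in macrophage-like cells. In endothelial-like and macrophage-like cells the result also depended on 1 library, whereas in the other main types leaving out any 1 sample gave 0 calls. Without control 1, the test called 7 members in endothelial-like cells (Dnaja1, Hsp90aa1, Hsp90ab1, Hspa1b, Hspa8, Hspd1 and Hsph1) and 7 in macrophage-like cells (Dnaja1, Dnajc19, Dnajc21, Hsp90aa1, Hsp90ab1, Hspa8 and Hsph1). Of these, Dnajc19 was the one with a negative fold change. Calls over all genes grew as well without control 1, to 203 in endothelial-like cells (2.04%), against 7 with all samples, and to 412 in macrophage-like cells (3.65%), against 0.

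Members whose 3 high-fat diet samples all lay above the 3 controls numbered 11 in endothelial-like cells, where 8.6% of all genes tested did so, and 14 in smooth-muscle-like cells, where 7.23% did. In fibroblast-like cells there were 14 such members beside 9.78% of all genes, and in macrophage-like cells 8 beside 6.62%. Members with every high-fat diet sample below every control numbered 5, 4, 3 and 2 in the same order of types, beside 8.67%, 8.62%, 8.27% and 7.47% of all genes. Between diets the median log2 fold change of the members was 0.15, 0.18, 0.14 and 0.09, while that of all genes tested was -0.01, -0.01, 0.00 and -0.01. Of the 50 members tested in all 4 types, 6 were higher without overlap in every one: Hspa8, Hsp90aa1, Hsp90ab1, Hsph1, Hspd1 and Dnajc21. Among all genes tested in the 4 types, 92 of 9148 (1.01%) were. Hspa4l, Dnaja1 and Bag5 were higher without overlap in 3 of the 4 types, 11 members in 1 or 2, and 21 showed no separation in any. Of the same 50, 9 were lower without overlap in 1 to 3 types, none in all 4, and no member was higher in one main type and lower in another. Dnajc12, tested in 3 of the types, was lower without overlap in 1. The filter left 7 members untested in every main type: Dnajc6 and Dnajb13 with 129 and 203 UMIs over all tested sums, and Dnajb7, Dnajb8, Dnajc5b, Dnajc5g and Dnajc22 with 0 to 9 UMIs.

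**Figure D2:**
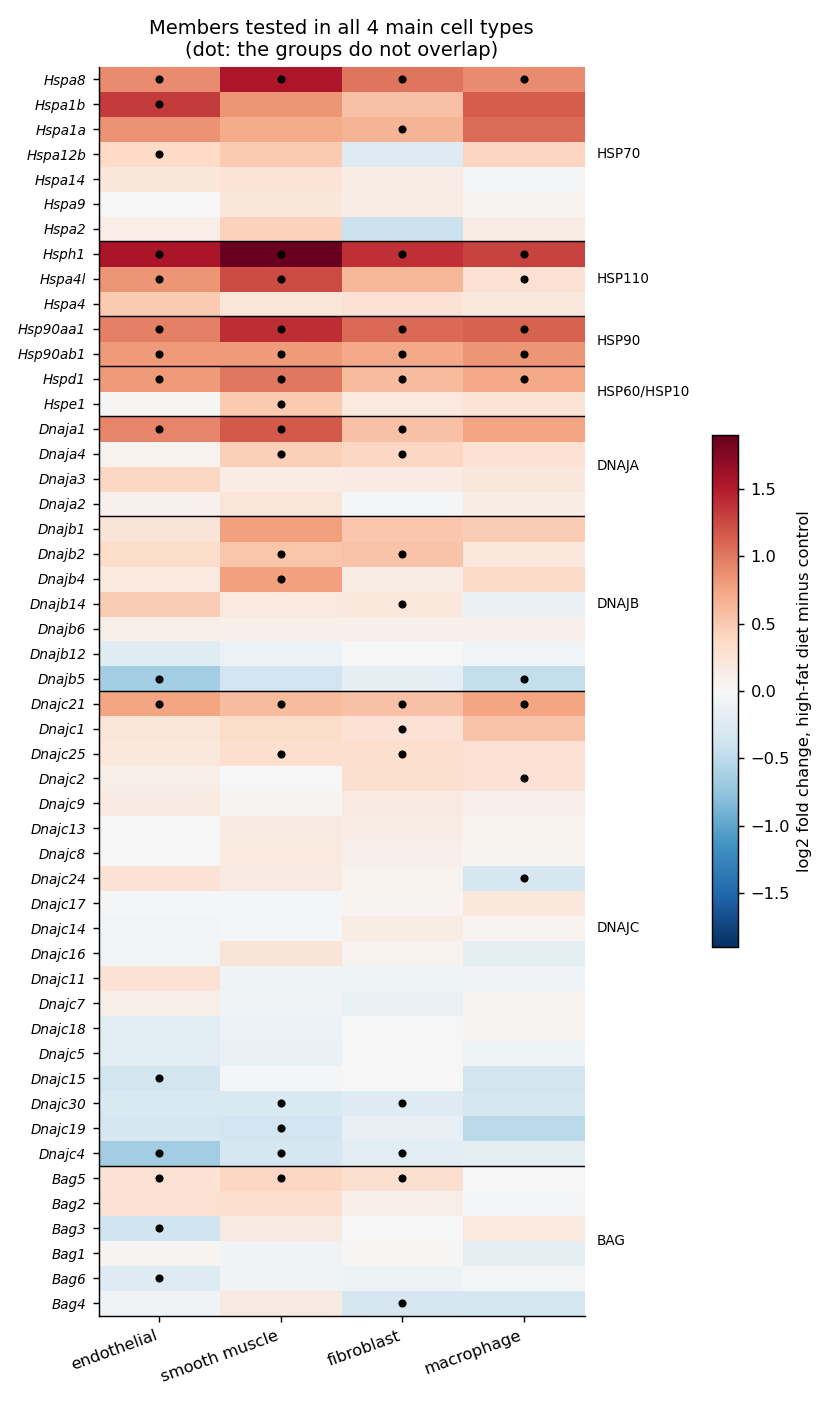
Log2 fold change of high-fat diet over control (colour, red for higher and blue for lower) for the 50 members tested in all 4 main cell types (columns), grouped by family; a dot marks a member whose 3 high-fat diet samples do not overlap the 3 controls. Hspa8, Hsph1, Hsp90aa1, Hsp90ab1, Hspd1 and Dnajc21 carry a dot in every column, and the DNAJC and BAG families hold fold changes of both signs.

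The promoters of these genes were searched for heat shock elements, since the members that lay higher in every type include classical targets of heat shock factor 1. The 250 bases before each annotated start were read from RefSeq (GRCm38.p6), where 50 of the 63 members were found by symbol. Of the 6 members higher in every type, Hspa8, Hsp90aa1 and Hsp90ab1 were not among them and were not searched, and the window of Dnajc21 held neither motif. The motif of 2 repeat units (GAANNTTC or TTCNNGAA, each of which reads the same on both strands) was found in 10 of these 50 genes and in 14.5% of all 27025 genes with a promoter. The motif of 3 alternating units (GAANNTTCNNGAA or its reverse complement TTCNNGAANNTTC, each of which contains the shorter motif) was found in 3 of the 50 (6.0%), namely Hspd1, Hspe1 and Dnajb6, and in 0.514% of all genes. A match is only a run of letters and was not shown to be bound. The genes with the shorter motif were Hspd1, Hspe1, Hsph1, Hspa1a, Hspa1b, Dnaja1, Dnaja4, Dnajb4, Dnajb6 and Dnajc27. The windows of 6 of them are shown as examples, since they hold the longer motif or belong to well-known stress-inducible chaperones and Dnaja1, each 5′ to 3′ on the gene's own strand, with the matching units in capitals. Hspd1 and Hspe1 lie head to head on chromosome 1, with the starts of their GENCODE gene spans 111 bases apart. They share a single run of 4 alternating units, chr1:55088053-55088082. It is read here from the minus strand for Hspd1 and from the plus strand for Hspe1. The run lies before the RefSeq start of Hspe1 and before a RefSeq start of Hspd1 that is not the start of its GENCODE span. The other RefSeq promoter of Hspd1, chr1:55088194-55088493, held neither motif. The window of Hsph1 is chr5:149636356-149636375 (minus strand), that of Hspa1a chr17:34972247-34972266 (minus strand), that of Dnaja1 chr4:40722338-40722357 (plus strand) and that of Dnajb6 chr5:29735846-29735870 (plus strand). A gene was counted if any of its RefSeq promoters held the motif, and other promoters of Dnaja1 held neither. The GENCODE spans of Hspd1, Hsph1, Dnaja1 and Dnajb6 begin further upstream, so their windows lie before a RefSeq start but inside those spans.
Hspd1: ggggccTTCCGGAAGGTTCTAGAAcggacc
Hspe1: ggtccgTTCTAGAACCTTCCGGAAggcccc
Hsph1: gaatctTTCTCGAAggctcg
Hspa1a: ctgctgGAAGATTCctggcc
Dnaja1: cctctaGAAAATTCtacgag
Dnajb6: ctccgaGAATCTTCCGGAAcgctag
Hspa1b, the neighbour of Hspa1a, carries the same 20 letters as the Hspa1a window in its own promoter.

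Hspa8 encodes Hsc70, the HSP70 that most cells make all the time, and it lies at chr9:40800984-40810087 (GRCm38 annotation, as are the positions of genes below). It was higher in every high-fat diet sample than in any control in all 4 types, though not past the test. In smooth-muscle-like cells Hspa8 stood at 1286, 1548 and 1542 CPM in high-fat diet samples 1, 2 and 3, against 429, 668 and 411 CPM in control samples 1, 2 and 3 (log2 fold change 1.54, SE 0.22, adjusted p = 0.116). In endothelial-like cells Hspa8 stood at 1309, 1541 and 1562 CPM in high-fat diet samples 1, 2 and 3, against 780.5, 868 and 720.3 CPM in control samples 1, 2 and 3 (log2 fold change 0.90, SE 0.14, adjusted p = 0.066). Every high-fat diet sample lay above every control in both. In fibroblast-like cells Hspa8 stood at 876, 1064 and 1014 CPM in high-fat diet samples 1, 2 and 3, against 499, 581 and 375 CPM in control samples 1, 2 and 3 (log2 fold change 1.02, SE 0.19, adjusted p = 0.168). In macrophage-like cells Hspa8 stood at 1498, 1742 and 1420.0 CPM in high-fat diet samples 1, 2 and 3, against 878, 938 and 687 CPM in control samples 1, 2 and 3 (log2 fold change 0.90, SE 0.18, adjusted p = 0.407). Here too the groups did not overlap, and in none of the 4 types did the adjusted p fall below 0.05. The diet difference was not shown to depend on the cell type: for Hspa8 the interaction of diet and type had an adjusted p of 0.477 in the edgeR quasi-likelihood fit of 24 sums, the lowest of the 57 members tested. No member passed that test, which called 0.0074% of all genes; 4 members (Hspa8, Hspa4l, Dnaja1 and Dnajc24) had an unadjusted p under 0.05. Of the 31-base words in the last 400 bases of the Hspa8 transcript, 48.9% also occur in other annotated genes, unnamed gene models such as Gm15459 among them, so its count is uncertain where reads could be split between such copies.

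The stress-inducible HSP70 genes Hspa1a and Hspa1b, adjacent on chromosome 17 and nearly the same protein, overlapped between diets in most types. In macrophage-like cells Hspa1a stood at 279.8, 482 and 741 CPM in high-fat diet samples 1, 2 and 3, against 445, 212 and 64.4 CPM in control samples 1, 2 and 3 (log2 fold change 1.06, SE 0.77, adjusted p = 0.772). In endothelial-like cells Hspa1a stood at 206, 314 and 357 CPM in high-fat diet samples 1, 2 and 3, against 324, 107 and 60.4 CPM in control samples 1, 2 and 3 (log2 fold change 0.85, SE 0.71, adjusted p = 0.734). The overlap came from control 1, which stood above high-fat diet 1 in both types. In smooth-muscle-like cells Hspa1a stood at 80.3, 87 and 280.3 CPM in high-fat diet samples 1, 2 and 3, against 59.5, 159.9 and 53.8 CPM in control samples 1, 2 and 3 (log2 fold change 0.71, SE 0.66, adjusted p = 0.753). In fibroblast-like cells Hspa1a stood at 89.6, 94.4 and 131 CPM in high-fat diet samples 1, 2 and 3, against 86.4, 87.9 and 26.1 CPM in control samples 1, 2 and 3 (log2 fold change 0.64, SE 0.44, adjusted p = 0.616). High-fat diet 3 was far above the other samples in smooth-muscle-like cells, and in fibroblast-like cells the groups did not overlap, although high-fat diet 1 and control 2 were close. Hspa1b behaved alike: in endothelial-like cells it had 82.2, 82.4 and 110.1 CPM in high-fat diet samples 1, 2 and 3, against 71.2, 31.2 and 12.7 CPM in control samples 1, 2 and 3 (log2 fold change 1.33, SE 0.61, adjusted p = 0.495), without overlap. In the other 3 main types its groups overlapped, with log2 fold changes of 0.84 in smooth-muscle-like, 0.55 in fibroblast-like and 1.15 in macrophage-like cells. None of the words in the last 400 bases of the Hspa1a and Hspa1b transcripts is shared with another gene, so their ends can be told apart.

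Hspa12b, an HSP70 relative known from endothelium, was higher without overlap in endothelial-like cells alone of the 4 types, with 114, 118 and 109.7 CPM in high-fat diet samples 1, 2 and 3, against 82.1, 96.2 and 84.8 CPM in control samples 1, 2 and 3 (log2 fold change 0.38, SE 0.14, adjusted p = 0.34). In fibroblast-like cells its log2 fold change was -0.24, with overlap. Hspa9, the mitochondrial HSP70, Hspa14, which sits with a J-domain protein on the ribosome, and Hspa2, first known from the testis, showed no separation in any main type.

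HSP110 proteins are large relatives of HSP70 that act as its exchange factors, and the 3 genes of the family had positive log2 fold changes in all 4 types. Hsph1, the heat-inducible one whose promoter window is printed above, had the largest of any member tested in each of them. It lies at chr5:149614287-149636376. In smooth-muscle-like cells Hsph1 stood at 103, 138 and 150.1 CPM in high-fat diet samples 1, 2 and 3, against 43.6, 26.3 and 36.5 CPM in control samples 1, 2 and 3 (log2 fold change 1.88, SE 0.23, adjusted p = 0.0755). In endothelial-like cells Hsph1 stood at 32.9, 36.5 and 45.6 CPM in high-fat diet samples 1, 2 and 3, against 16.8, 15.6 and 8.87 CPM in control samples 1, 2 and 3 (log2 fold change 1.55, SE 0.26, adjusted p = 0.0736). The 2 groups were wide apart in both types. In fibroblast-like cells Hsph1 stood at 30.5, 43.6 and 56.1 CPM in high-fat diet samples 1, 2 and 3, against 23.9, 15 and 9.75 CPM in control samples 1, 2 and 3 (log2 fold change 1.39, SE 0.35, adjusted p = 0.291). In macrophage-like cells Hsph1 stood at 30.1, 44.9 and 35.9 CPM in high-fat diet samples 1, 2 and 3, against 22, 16.4 and 7.42 CPM in control samples 1, 2 and 3 (log2 fold change 1.28, SE 0.35, adjusted p = 0.495). High-fat diet 1 was the lowest of its group in all 4 types. The fold change of Hsph1 differed by well: the log2 value was 2.34 in well 1 and 0.73 in well 2 in endothelial-like cells, and 1.91 and 0.67 in fibroblast-like cells. Some of these single-well sums were small. Well 1 of control 3 held 110 endothelial-like and 147 fibroblast-like cells, and well 2 of control 1 held 54 endothelial-like cells. Hspa4l was higher without overlap in smooth-muscle-like cells, at 44.6, 61.3 and 47.6 CPM in high-fat diet samples 1, 2 and 3, against 28.2, 20.5 and 16.1 CPM in control samples 1, 2 and 3 (log2 fold change 1.24, SE 0.23, adjusted p = 0.251). It was also higher without overlap in endothelial-like cells (log2 fold change 0.85) and macrophage-like cells (0.29), and in fibroblast-like cells control 1 overlapped the high-fat diet samples (0.64). Hspa4, the third, overlapped in all 4 types, with log2 fold changes of 0.49 in endothelial-like and 0.20 to 0.27 in the other 3.

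Both cytosolic HSP90 genes were higher without overlap in all 4 types. Hsp90aa1, the inducible form (chr12:110690605-110702728), had its largest log2 fold change in smooth-muscle-like cells. In smooth-muscle-like cells Hsp90aa1 stood at 640.3, 855 and 785 CPM in high-fat diet samples 1, 2 and 3, against 289, 353 and 221 CPM in control samples 1, 2 and 3 (log2 fold change 1.40, SE 0.21, adjusted p = 0.13). In endothelial-like cells Hsp90aa1 stood at 279, 406 and 420.3 CPM in high-fat diet samples 1, 2 and 3, against 233, 188 and 147 CPM in control samples 1, 2 and 3 (log2 fold change 0.96, SE 0.20, adjusted p = 0.14). The groups were apart in both, and high-fat diet 1 was the lowest of its group. In fibroblast-like cells Hsp90aa1 stood at 351, 449.7 and 455 CPM in high-fat diet samples 1, 2 and 3, against 219, 211 and 168 CPM in control samples 1, 2 and 3 (log2 fold change 1.07, SE 0.16, adjusted p = 0.109). In macrophage-like cells Hsp90aa1 stood at 395, 646 and 587 CPM in high-fat diet samples 1, 2 and 3, against 326, 223 and 199 CPM in control samples 1, 2 and 3 (log2 fold change 1.12, SE 0.25, adjusted p = 0.457). In macrophage-like cells high-fat diet 1 and control 1 came closest to each other. Hsp90ab1, the form made at all times (chr17:45567775-45573271), had log2 fold changes between 0.71 and 0.84. In endothelial-like cells Hsp90ab1 stood at 1705, 1984 and 1956 CPM in high-fat diet samples 1, 2 and 3, against 996, 1139.6 and 1102 CPM in control samples 1, 2 and 3 (log2 fold change 0.80, SE 0.14, adjusted p = 0.0736). In smooth-muscle-like cells Hsp90ab1 stood at 1301, 1615 and 1574 CPM in high-fat diet samples 1, 2 and 3, against 852, 995 and 712 CPM in control samples 1, 2 and 3 (log2 fold change 0.81, SE 0.17, adjusted p = 0.311). Its lowest high-fat diet sample stood well above its highest control in both. In fibroblast-like cells Hsp90ab1 stood at 1082, 1288 and 1228 CPM in high-fat diet samples 1, 2 and 3, against 739, 793 and 662 CPM in control samples 1, 2 and 3 (log2 fold change 0.71, SE 0.14, adjusted p = 0.199). In macrophage-like cells Hsp90ab1 stood at 1174, 1593 and 1450.3 CPM in high-fat diet samples 1, 2 and 3, against 861, 813 and 689 CPM in control samples 1, 2 and 3 (log2 fold change 0.84, SE 0.17, adjusted p = 0.44). For Hsp90ab1, 14.6% of the words in the last 400 bases of its transcript are shared with other annotated genes, and for Hsp90aa1 1.08%.

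**Figure D3:**
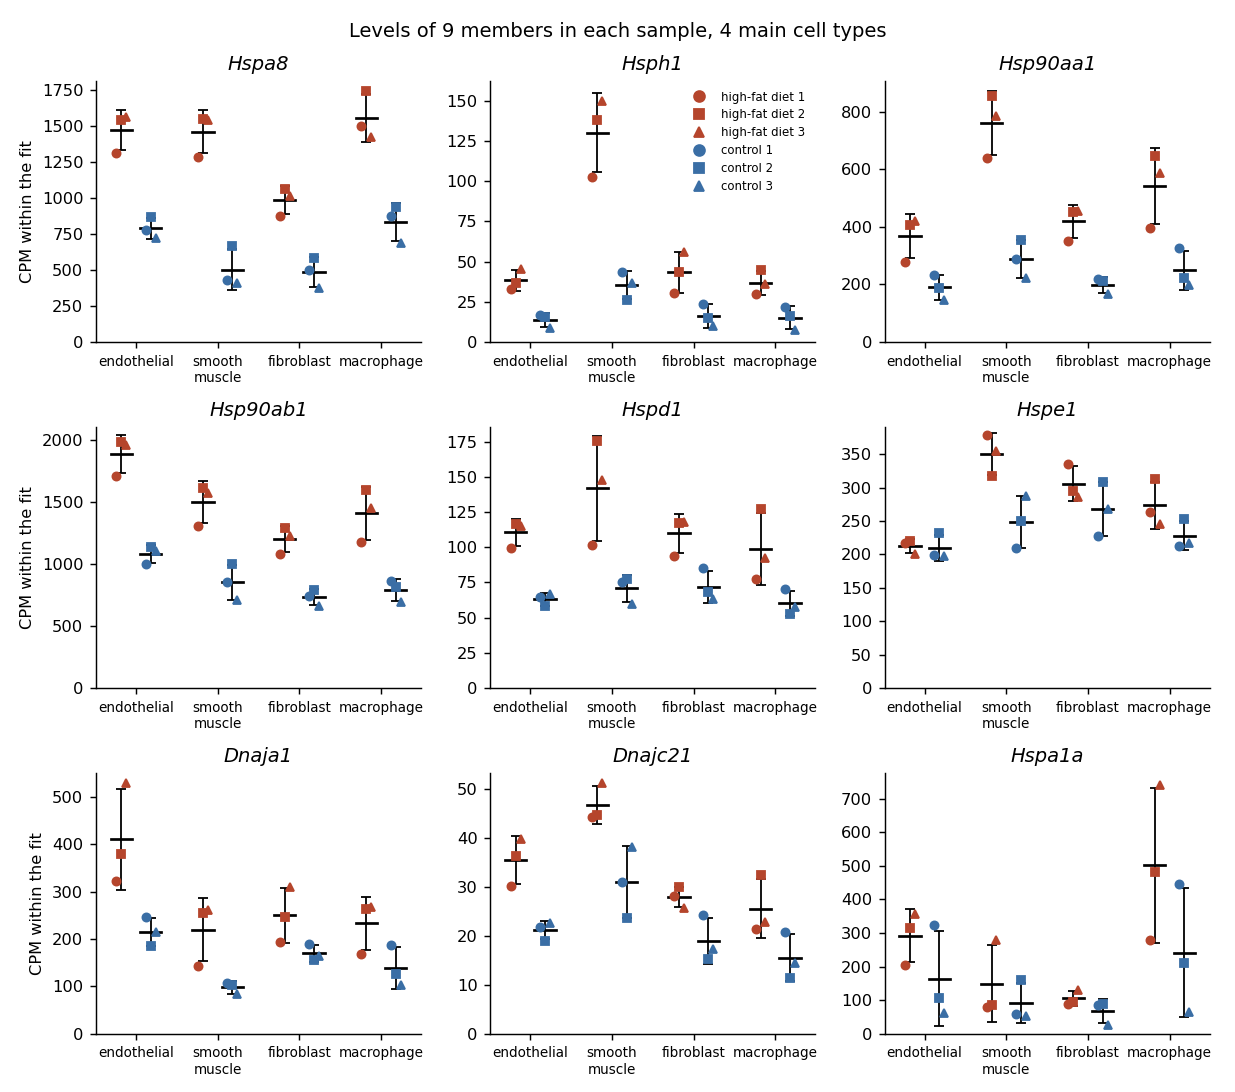
Levels (CPM within the model of each type, linear y axes from 0) of 9 members in every sample of the 4 main cell types, high-fat diet in red left of control in blue; bars show the mean and SD of 3 samples. The groups stay apart in all 4 types for Hspa8, Hsph1, Hsp90aa1, Hsp90ab1, Hspd1 and Dnajc21, while control 1 reaches into the high-fat diet range for Hspa1a in endothelial- and macrophage-like cells.

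Hspd1 (chr1:55077835-55088243) and Hspe1 (chr1:55088132-55091307) encode the mitochondrial chaperonin and its lid, which work as a pair and share the promoter run shown above, and each has its own diet values. In endothelial-like cells Hspd1 stood at 99.4, 117 and 115 CPM in high-fat diet samples 1, 2 and 3, against 64.3, 58.1 and 67 CPM in control samples 1, 2 and 3 (log2 fold change 0.81, SE 0.15, adjusted p = 0.0759). In smooth-muscle-like cells Hspd1 stood at 102, 176 and 148 CPM in high-fat diet samples 1, 2 and 3, against 75.5, 77.2 and 59.8 CPM in control samples 1, 2 and 3 (log2 fold change 1.00, SE 0.22, adjusted p = 0.318). In both types the groups were apart. In fibroblast-like cells Hspd1 stood at 93.6, 117 and 118 CPM in high-fat diet samples 1, 2 and 3, against 84.9, 68 and 63.1 CPM in control samples 1, 2 and 3 (log2 fold change 0.61, SE 0.15, adjusted p = 0.28). In macrophage-like cells Hspd1 stood at 77.2, 127 and 92.3 CPM in high-fat diet samples 1, 2 and 3, against 70.1, 52.8 and 57.3 CPM in control samples 1, 2 and 3 (log2 fold change 0.72, SE 0.20, adjusted p = 0.495). High-fat diet 1 was close to control 1 in these types. In well 2 alone the log2 fold change of Hspd1 was smaller, at 0.37 in endothelial-like, 0.61 in smooth-muscle-like, 0.20 in fibroblast-like and 0.30 in macrophage-like cells. In well 1 of macrophage-like cells it was 1.27, with 63 such cells in control 3. Hspe1 was higher without overlap in smooth-muscle-like cells alone, with 379, 317 and 355 CPM in high-fat diet samples 1, 2 and 3, against 209, 250.3 and 287 CPM in control samples 1, 2 and 3 (log2 fold change 0.49, SE 0.16, adjusted p = 0.458). In endothelial-like cells its mean was 212 ± 10.5 CPM in the high-fat diet samples and 209 ± 19.1 CPM in the controls (SD, n = 3 each), with overlapping groups and a log2 fold change of 0.02. In fibroblast- and macrophage-like cells it also overlapped, at 0.19 and 0.26. The difference between the diet effects of Hspd1 and Hspe1 was not tested.

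Among J-domain proteins of class A, Dnaja1, a cytosolic partner of Hsc70 (chr4:40722150-40737149), was higher without overlap in 3 of the 4 types. In endothelial-like cells Dnaja1 stood at 323, 378 and 528 CPM in high-fat diet samples 1, 2 and 3, against 245, 185 and 214 CPM in control samples 1, 2 and 3 (log2 fold change 0.93, SE 0.19, adjusted p = 0.108). In smooth-muscle-like cells Dnaja1 stood at 143, 255 and 261 CPM in high-fat diet samples 1, 2 and 3, against 107, 103 and 82.9 CPM in control samples 1, 2 and 3 (log2 fold change 1.17, SE 0.24, adjusted p = 0.311). Both types showed no overlap, and high-fat diet 1 was again the lowest of its group. In fibroblast-like cells Dnaja1 stood at 193, 247 and 309.6 CPM in high-fat diet samples 1, 2 and 3, against 190.1, 155 and 163 CPM in control samples 1, 2 and 3 (log2 fold change 0.56, SE 0.19, adjusted p = 0.372). In macrophage-like cells Dnaja1 stood at 169, 263 and 266 CPM in high-fat diet samples 1, 2 and 3, against 188, 127 and 102 CPM in control samples 1, 2 and 3 (log2 fold change 0.75, SE 0.26, adjusted p = 0.567). In macrophage-like cells control 1 stood above high-fat diet 1. In well 2 alone the log2 fold change of Dnaja1 was 0.61 in endothelial-like, 0.46 in smooth-muscle-like and 0.07 in fibroblast-like cells. Dnaja4 was higher without overlap in smooth-muscle-like (log2 fold change 0.45) and fibroblast-like cells (0.39), and Dnaja2 and the mitochondrial Dnaja3 overlapped in all 4 types.

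In class B, Dnajb1, the inducible partner of HSP70 long known as Hsp40, overlapped between diets in every main type. In smooth-muscle-like cells it had 27.6, 25.6 and 68.1 CPM in high-fat diet samples 1, 2 and 3, against 21.3, 26.3 and 22.8 CPM in control samples 1, 2 and 3 (log2 fold change 0.78, SE 0.39, adjusted p = 0.586), with high-fat diet 3 far above the rest. Dnajb2, which sorts clients towards the proteasome, was higher without overlap in fibroblast-like cells, at 37.2, 42.8 and 37.5 CPM in high-fat diet samples 1, 2 and 3, against 35.3, 23 and 22.5 CPM in control samples 1, 2 and 3 (log2 fold change 0.54, SE 0.19, adjusted p = 0.39), and in smooth-muscle-like cells (log2 fold change 0.52). Dnajb4 was higher without overlap in smooth-muscle-like cells, where it had 151, 150.2 and 313 CPM in high-fat diet samples 1, 2 and 3, against 117, 109 and 130.1 CPM in control samples 1, 2 and 3 (log2 fold change 0.78, SE 0.29, adjusted p = 0.51). High-fat diet 3 was far above the other samples of its group. Dnajb5 ran the other way, lower without overlap in endothelial-like (-0.64) and macrophage-like cells (-0.46), and Dnajb6, whose promoter holds the 3-unit motif, overlapped in all 4 types.

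Class C, with 26 genes the most varied, held members on both sides. Dnajc21 (chr15:10446756-10470516), known for its part in making the large ribosomal subunit, was the only one higher without overlap in every main type. In endothelial-like cells Dnajc21 stood at 30.1, 36.5 and 39.9 CPM in high-fat diet samples 1, 2 and 3, against 21.8, 19.1 and 22.7 CPM in control samples 1, 2 and 3 (log2 fold change 0.75, SE 0.20, adjusted p = 0.222). In smooth-muscle-like cells Dnajc21 stood at 44.3, 44.8 and 51.4 CPM in high-fat diet samples 1, 2 and 3, against 31.1, 23.7 and 38.3 CPM in control samples 1, 2 and 3 (log2 fold change 0.60, SE 0.19, adjusted p = 0.442). In fibroblast-like cells Dnajc21 stood at 28.2, 30 and 25.8 CPM in high-fat diet samples 1, 2 and 3, against 24.3, 15.2 and 17.3 CPM in control samples 1, 2 and 3 (log2 fold change 0.56, SE 0.19, adjusted p = 0.366). The groups were apart by a small margin in fibroblast-like cells, where high-fat diet 3 was next to control 1. In macrophage-like cells Dnajc21 stood at 21.3, 32.5 and 23 CPM in high-fat diet samples 1, 2 and 3, against 20.7, 11.3 and 14.6 CPM in control samples 1, 2 and 3 (log2 fold change 0.75, SE 0.26, adjusted p = 0.564). In macrophage-like cells the gap was smaller still. The log2 fold change was 0.38 in well 2 alone in endothelial-like cells and 0.26 with cells thinned to 1000 UMIs in macrophage-like cells. Dnajc25 was higher without overlap in fibroblast-like (0.32) and smooth-muscle-like cells (0.32). Dnajc1, of the membrane of the endoplasmic reticulum, was so in fibroblast-like cells (0.28; 0.54 with overlap in macrophage-like cells), and Dnajc2, which docks HSP70 to ribosomes, in macrophage-like cells (0.27).

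Several mitochondrial members of class C stood lower in the high-fat diet samples. Dnajc4 was lower without overlap in endothelial-like cells, at 19.2, 24.3 and 23.5 CPM in high-fat diet samples 1, 2 and 3, against 31.7, 32.1 and 41.6 CPM in control samples 1, 2 and 3 (log2 fold change -0.66, SE 0.21, adjusted p = 0.283). It was also lower without overlap in smooth-muscle-like (-0.31) and fibroblast-like cells (-0.22). Dnajc19, linked to the import motor of the inner membrane, was lower without overlap in smooth-muscle-like cells (-0.36), and in macrophage-like cells its log2 fold change was -0.52 with control 1 inside the high-fat diet range. Dnajc15, a relative of Dnajc19, was lower without overlap in endothelial-like cells (-0.35), and Dnajc30 in smooth-muscle-like (-0.28) and fibroblast-like cells (-0.24). The mitochondrial members thus held Hspd1 and, in smooth-muscle-like cells, Hspe1 on one side and Dnajc4, Dnajc15, Dnajc19 and Dnajc30 on the other. Of the 9, 2, 3, 2 and 0 were lower without overlap in endothelial-like, smooth-muscle-like, fibroblast-like and macrophage-like cells, beside 8.67%, 8.62%, 8.27% and 7.47% of all genes. Higher without overlap were 1, 2, 1 and 1, beside 8.6%, 7.23%, 9.78% and 6.62%. The median log2 fold change of the 9 was -0.01 in endothelial-like, -0.02 in smooth-muscle-like, 0.01 in fibroblast-like and -0.06 in macrophage-like cells. Outside the mitochondrion, Dnajc12 was lower without overlap in smooth-muscle-like cells, at 3.23, 2.92 and 3.8 CPM in high-fat diet samples 1, 2 and 3, against 6.62, 4.63 and 8.51 CPM in control samples 1, 2 and 3 (log2 fold change -0.98, SE 0.28, adjusted p = 0.409). Dnajc24, needed to make diphthamide on an elongation factor, was lower without overlap in macrophage-like cells (-0.32).

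BAG proteins bind HSP70 through the BAG domain and release its nucleotide. Bag5 was higher without overlap in endothelial-like (0.28), smooth-muscle-like (0.40) and fibroblast-like cells (0.31), whereas in macrophage-like cells it overlapped (-0.01). Bag3, a stress-inducible partner in selective autophagy of muscle, was not higher without overlap in any main type. In endothelial-like cells it was lower without overlap, at 37.7, 43.2 and 39.9 CPM in high-fat diet samples 1, 2 and 3, against 50.4, 57.2 and 49.3 CPM in control samples 1, 2 and 3 (log2 fold change -0.38, SE 0.16, adjusted p = 0.422). In the other types it overlapped, with log2 fold changes of 0.17 in smooth-muscle-like, 0.00 in fibroblast-like and 0.19 in macrophage-like cells. Bag6 was lower without overlap in endothelial-like (-0.24) and Bag4 in fibroblast-like cells (-0.32), and Bag1 and Bag2 overlapped in all 4 types.

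The remaining 5 types gave fewer cells and were tested in the same way. In B-cell-like cells 2 of 42 members tested rose in the high-fat diet samples, where the edgeR quasi-likelihood test called 1.74% of all genes tested. Hsph1 had 42, 42.5 and 35.4 CPM in high-fat diet samples 1, 2 and 3, against 26.5, 8.57 and 11.8 CPM in control samples 1, 2 and 3 (log2 fold change 1.91, SE 0.27, adjusted p = 0.0117). Hspa1a had 134, 81.5 and 132 CPM in high-fat diet samples 1, 2 and 3, against 70.8, 23.2 and 15.8 CPM in control samples 1, 2 and 3 (log2 fold change 2.48, SE 0.35, adjusted p = 0.016). The control 1 sum held 23 B-cell-like cells against 2436 and 2189 in the other controls, and neither call remained without control 2 (adjusted p = 0.23 and 0.233), control 3 (0.0572 and 0.081) or high-fat diet 1 (0.168 for both). In mesothelial-like cells 1 of 48 members tested rose, beside 0.191% of all genes tested: Hsp90aa1 had 699, 997 and 826 CPM in high-fat diet samples 1, 2 and 3, against 395, 454 and 315 CPM in control samples 1, 2 and 3 (log2 fold change 1.11, SE 0.19, adjusted p = 0.0402). That call was lost when any sample but high-fat diet 3 was left out, with adjusted p between 0.0982 and 0.257. No member was called in pericyte-like (19 tested), T-cell-like (36) or erythroid (21) cells, where edgeR called 0.0%, 0.0857% and 0.435% of all genes and 4, 5 and 3 members had an unadjusted p under 0.05, beside 5.69%, 11.6% and 11.6% of all genes. Members higher without overlap numbered 10 in B-cell-like cells, beside 9.11% of all genes, and 16 in mesothelial-like cells, beside 7.57%. Those lower without overlap numbered 1 and 2, beside 7.14% and 7.65%.

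Between the 4 main types many members passed the test. All 6 samples entered a single model of 24 sums with the sample as a block, and each type was set against the mean of the other 3 with the edgeR quasi-likelihood test; CPM values in this account of cell types come from that model. Of 57 members tested, 11 were higher and 17 lower in endothelial-like cells, where 25.1% and 28.6% of all genes were. In smooth-muscle-like cells 25 were higher and 18 lower, beside 32.6% and 35.4% of all genes. In fibroblast-like cells the counts were 13 and 27, beside 29.8% and 33.1%, and in macrophage-like cells 19 and 20, beside 34.0% and 36.9%. Against those shares of all genes, the members had more higher calls in smooth-muscle-like cells and more lower calls in fibroblast-like cells, and these differences were not tested.

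Hspa12b was far higher in endothelial-like cells than elsewhere. It ran from 72.8 to 107 CPM (median 93.2) in the 6 endothelial-like sums, against 9.03 to 22.8 CPM in fibroblast-like, 1.55 to 4.12 CPM in smooth-muscle-like and 1.95 to 4.25 CPM in macrophage-like sums (log2 difference 4.22, SE 0.15, adjusted p = 1.52e-15, edgeR). Dnaja4 was also highest in endothelial-like cells, at 21.9 to 34.9 CPM (median 26.5), against at most 15.3 CPM in any sum of the other types (log2 difference 1.79, SE 0.14, adjusted p = 3.94e-10, edgeR). Bag2 was lower in endothelial-like cells than in the mean of the other types (-0.99, SE 0.28, adjusted p = 0.00626, edgeR). Macrophage-like cells stood as low, with a median of 5.03 CPM against 5.49 CPM in endothelial-like cells. Bag2 was highest in smooth-muscle-like cells, at 20.1 to 32.5 CPM.

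Smooth-muscle-like cells carried Hspa2 at 32.7 to 85.4 CPM (median 54.8), against at most 27.2 CPM in any other sum (log2 difference 2.37, SE 0.14, adjusted p = 2.15e-11, edgeR). Hspa1l, a low gene near Hspa1a, reached 2.22 to 6.54 CPM there and at most 2.01 CPM elsewhere (log2 difference 2.96, SE 0.23, adjusted p = 5.05e-10, edgeR). Dnajb4, named here after its values were seen, ran from 110 to 319 CPM in smooth-muscle-like cells and at most 72.0 CPM elsewhere (2.13, SE 0.11, adjusted p = 2.66e-12), and Dnajb5, also named so, had a log2 difference of 2.34 (SE 0.13, adjusted p = 2.07e-12). Hsph1 was higher in smooth-muscle-like cells as well (log2 difference 1.56, SE 0.12, adjusted p = 3.41e-10), although its diet spread made the ranges of the types overlap, from 26.4 to 153 CPM there and 7.93 to 54.9 CPM elsewhere. Smooth muscle markers were found in the endothelial-like sums too, at 2219, 3325 and 1669 CPM in the high-fat diet samples and 3228, 605 and 761 CPM in the controls, against 22073 CPM or more in smooth-muscle-like sums; their part in the endothelial-like values was not tested.

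Fibroblast-like cells carried Hspa12a at 9.73 to 15.9 CPM (log2 difference 1.98, SE 0.21, adjusted p = 7.28e-08, edgeR), although 1 endothelial-like sum reached 15.6 CPM. Dnajb3 was low everywhere and highest in fibroblast-like cells, at 1.45 to 3.63 CPM (2.00, SE 0.27, adjusted p = 1.66e-06). In macrophage-like cells Dnajb13 stood at 2.27 to 7.16 CPM and at most 0.496 CPM elsewhere (log2 difference 4.45, SE 0.30, adjusted p = 3.41e-11, edgeR). These last 2 are uncertain, since Dnajb13 overlaps Ucp2 and Dnajb3 overlaps genes of the Ugt1a cluster on the opposite strand, and whether strand was used in counting is not given in the sources used here. The same holds for other members with values above that overlap an annotated gene with a name of its own on the opposite strand, such as Dnaja1 (Smu1), Dnaja4 (Wdr61), Dnajc1 (Mllt10), Dnajc19 (Fxr1), Dnajc24 (Dcdc5), Dnajc30 (Bud23) and Hspa12a (Eno4), and for Hspd1 and Hspe1, which overlap each other at their starts. Hspa12b and Dnaja4 were lower in macrophage-like cells (-2.37, SE 0.24, and -1.92, SE 0.17), Hspa12b in smooth-muscle-like cells (-2.52, SE 0.20) and Hspa1l in fibroblast-like cells (-1.67, SE 0.35), each with an adjusted p below the threshold. Low levels of Hspa12b and Hspa1l were not particular to 1 type. Mean Hspa12b was 2.79 CPM in smooth-muscle-like and 3.10 CPM in macrophage-like sums. Mean Hspa1l was 0.454 CPM in fibroblast-like, 0.643 CPM in endothelial-like and 1.06 CPM in macrophage-like sums, against 4.96 CPM in smooth-muscle-like sums. Of the inducible HSP70 genes, Hspa1a was higher in macrophage-like cells (1.53, SE 0.22, adjusted p = 6.61e-06, edgeR), with 70.6 to 822 CPM over the 6 samples. The ranges of the types overlapped, at 54.0 to 323 CPM in endothelial-like, 54.5 to 285 CPM in smooth-muscle-like and 25.2 to 128 CPM in fibroblast-like sums.

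**Figure D4:**
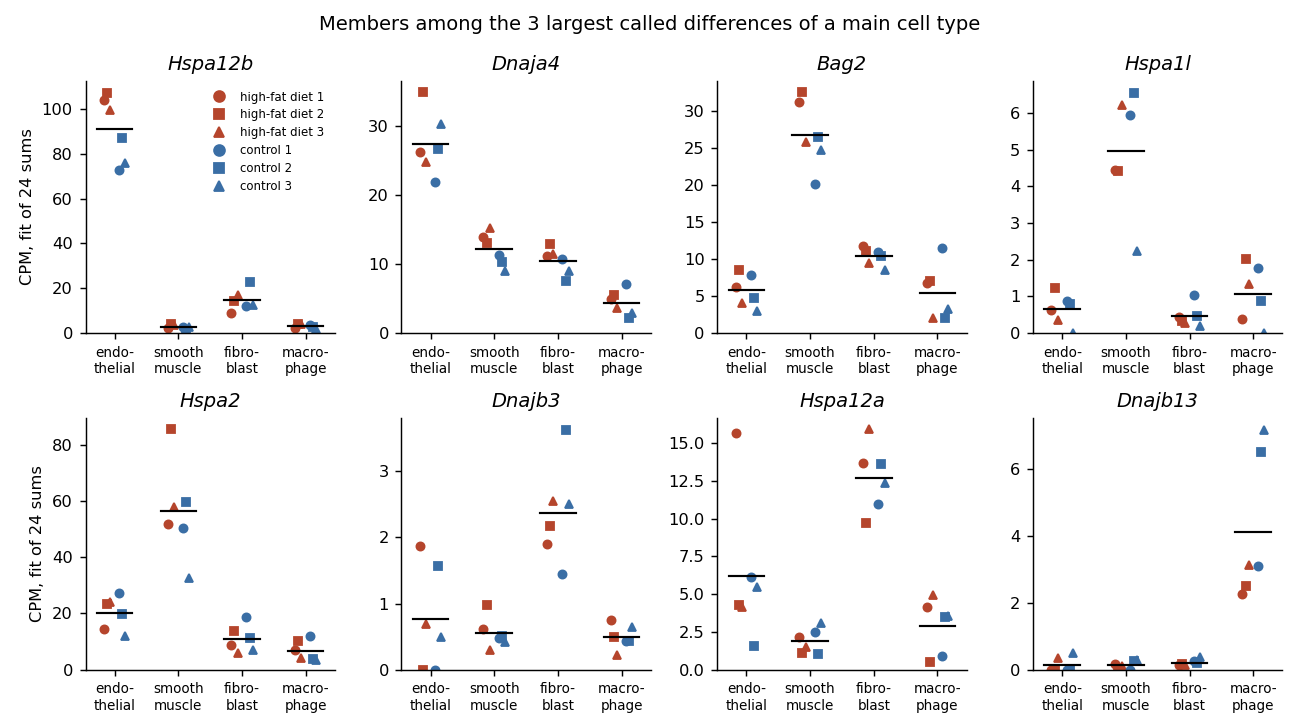
Levels (CPM in the model of 24 sums, linear y axes from 0) of the 8 members that are among the 3 largest called differences of 1 or more of the 4 main cell types, 1 point per sample, high-fat diet in red and left of control in blue; the line is the mean of 6 samples. Hspa12b and Dnaja4 are highest in endothelial-like, Hspa1l, Hspa2 and Bag2 in smooth-muscle-like, Dnajb3 and Hspa12a in fibroblast-like and Dnajb13 in macrophage-like cells.

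Proteins that work with HSP70 and HSP90 but carry other names showed positive medians as well. Of 20 co-chaperone and heat shock factor genes, all were tested in each main type and none was called by edgeR. Of these 8, 7, 8 and 7 had an unadjusted p under 0.05 in endothelial-like, smooth-muscle-like, fibroblast-like and macrophage-like cells. The shares of all genes tested at that p were 11.3%, 9.39%, 11.0% and 7.73% in the same order. Higher without overlap were 7, 6, 7 and 8 of the list, beside 8.6%, 7.23%, 9.78% and 6.62% of all genes. The median log2 fold change of the list was 0.22, 0.24, 0.12 and 0.24. Stip1, which passes clients from HSP70 to HSP90, averaged 57.5 ± 6.54 CPM in the high-fat diet samples and 31.8 ± 4.92 CPM in the controls in endothelial-like cells (SD, n = 3 each; log2 fold change 0.86, SE 0.18, adjusted p = 0.132). Stip1, St13, Fkbp4 and Ahsa2 were higher without overlap in all 4 types, as were 1.01% of all genes tested in the 4 types. The TRiC chaperonin and prefoldin, which fold actin and tubulin, had 13 genes tested and none called by edgeR (1, 1, 0 and 1 with an unadjusted p under 0.05), with medians of 0.06, 0.17, 0.14 and 0.20. The proteasome (31 genes) had none called (4, 0, 0 and 6 at that p) and medians of 0.01, 0.10, 0.12 and 0.10. Immediate early genes, some of which respond to tissue dissociation, had none of 14 called (2, 1, 3 and 3 at that p). Their medians were -0.06, -0.31, 0.13 and 0.18, and their part in the chaperone values was not tested.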

How the data were processed

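Single-cell 3′ RNA counts of 6 mouse aorta samples were used. The deposited files hold raw UMI counts per gene and cell; the tool named per the submitters' processing notes is Cell Ranger 3.0, with build mm10. Strand use, cell calling and annotation are not given in the sources used here. Each matrix joins 2 gel-bead wells, as the barcode suffixes show.

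Cells with at least 300 genes and under 20% mitochondrial counts were kept (59413 of 62838), and 1394 doublets (Scrublet in scanpy 1.11.5, score above 0.25, expected rate 0.06, per well) were removed. A cell was assigned to the type with the largest share of its markers detected above their mean share of UMIs in that sample, with at least 3 such markers and any second type at 0.5 of that share or less. The remaining cells stayed without a type. Counts were summed per sample and type, for types with at least 20 cells in every sample, and tested with edgeR 4.0.16 (quasi-likelihood, robust, TMM factors, default filter on low counts, R 4.3.3) with Benjamini-Hochberg adjustment at 0.05 over all genes tested. Differences between types and the interaction used 1 model of 24 sums with the sample as a block. The procedure was tested on simulated data.

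The members and lists were chosen with earlier results of these data known. Named are called members, 11 well-known chaperones (Hspa8, Hspa1a, Hspa1b, Hsp90aa1, Hsp90ab1, Hsph1, Hspd1, Hspe1, Dnaja1, Dnajb1, Bag3), the 4 other members with the smallest unadjusted p on the rising and the 2 on the falling side of each main type, and the 3 called members with the largest difference of each main type from the others. Members named beyond these because their groups did not overlap or for contrast with them (Dnajb4, Dnajb5, Dnajc30 and Bag6, and those given without values) were chosen after their values were seen. Alternatives were DESeq2 1.42.0, median-of-ratios factors, testing every gene without the filter, a replicate block, leaving out single samples, a stricter gate, no doublet removal, a 10% mitochondrial limit, single wells and thinning to 1000 UMIs per cell. Those of the counts without overlap, of the median fold changes and of the genes outside the members were chosen after seeing the data. Promoters came from RefSeq GRCm38.p6 and gene positions from GENCODE vM21. Sums, shares and plots were made in Python 3.11.15 with pandas 2.3.3, scipy 1.17.1, numpy 2.4.6 and matplotlib 3.10.9.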

Additional observations from a re-analysis of the deposited data

Results flagged for a closer look

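Cells that fitted no marker gate were used in no comparison above, and they too held a larger share of chaperone transcripts in the high-fat diet samples. The 63 genes took 0.651% ± 0.0681 of the UMIs of these cells in the high-fat diet samples and 0.423% ± 0.0325 in the controls (SD, n = 3 each), and the lowest high-fat diet sample (0.574%) lay above the highest control (0.460%). No test was run on these cells, whose type is not known.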

How the results depend on the processing

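The count of members called in a main type, 0 in each by edgeR, moved under several settings, and the cause was not tested. DESeq2 called 5 in endothelial-like, 7 in smooth-muscle-like, 4 in fibroblast-like and 3 in macrophage-like cells; with no filter on low counts edgeR called 6, 3, 1 and 0 (of all genes 140, 21, 27 and 4), and with cells thinned to 1000 UMIs 1, 3, 0 and 0 (of all genes 13, 11, 7 and 1). Well 2 alone gave 1 in smooth-muscle-like cells (of all genes 8). With each sample left out in turn the count ran from 0 to 7 in endothelial-like and macrophage-like cells, 7 without control 1 in both, and stayed at 0 in the other main types. In the other 5 types, with 3 calls in all, it ran from 0 (without control 2, control 3 or high-fat diet 1) to 11 (without control 1), with 5 without high-fat diet 3. The calls over all genes in these 5 types under these settings are not given here. These counts therefore do not show a change particular to the members. With the replicate number as a block 0 members were called in each main type. Deviations from the group means correlated from -0.18 to 0.39 between samples sharing a number, and from -0.49 to 0.46 between samples with different numbers. A pairing by number was therefore not shown, and 3 samples a group are too few to exclude it. No called value changed sign, and the interaction stayed at 0 calls under every setting run for it. Of the 6 members higher in all 4 types without overlap, Dnajc21 was lost under the stricter gate and in well 1, Dnajc21, Hspd1 and Hsph1 in well 2 (3 left), and Dnajc21 and Hsph1 with thinning (4 left). Of 1319 values of single genes under alternatives, 1173 kept direction and side of the threshold, 48 passed it, 77 lost it and 21 that had not passed changed sign. With 3 samples a group, and 23 cells in the smallest sum tested, small differences were not detectable.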

Other observations

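Chaperones of the endoplasmic reticulum, which the symbol rule leaves out, also stood mostly higher in the high-fat diet samples. Of 14 tested in each main type, 10 were higher without overlap in endothelial-like, 12 in smooth-muscle-like, 13 in fibroblast-like and 12 in macrophage-like cells. Of all genes tested, 8.6%, 7.23%, 9.78% and 6.62% were so. The median log2 fold changes of the list were 0.57, 0.63, 0.91 and 0.54. By edgeR 1, 0, 1 and 0 of the list passed the test, beside 0.0722%, 0.0%, 0.0444% and 0.0% of all genes. An unadjusted p under 0.05 was found for 10, 12, 13 and 11, beside 11.3%, 9.39%, 11.0% and 7.73%. Hspa5, the HSP70 of that compartment, rose in endothelial-like cells, at 461 ± 107 CPM in the high-fat diet samples and 181 ± 29.1 CPM in the controls (SD, n = 3 each; log2 fold change 1.35, SE 0.19, edgeR adjusted p = 0.0421). Manf, a secreted factor retained in the compartment, rose in fibroblast-like cells, at 548 ± 90.7 CPM in the high-fat diet samples and 163 ± 23.9 CPM in the controls (log2 fold change 1.75, SE 0.18, edgeR adjusted p = 0.0441). The Hspa5 call was lost when any sample but control 1 was left out, and the Manf call when any sample was, with adjusted p up to 0.275 and from 0.0806 to 0.328. In B-cell-like cells 5 genes of this list rose, beside 1.74% of all genes called, and in mesothelial-like cells 4, beside 0.191%. Each of these calls was lost without 3 or more of the 6 samples in turn.

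Small heat shock proteins, which hold unfolded proteins without ATP, were a mixed group. Of 6 tested in each main type, 1 rose, in endothelial-like cells, where 0.0722% of all genes tested were called. It was Hspb1, at 1576 ± 158 CPM in the high-fat diet samples and 782 ± 103 CPM in the controls (SD, n = 3 each, log2 fold change 1.01, SE 0.15, edgeR adjusted p = 0.0486). That call too was lost when any sample but control 1 was left out, with adjusted p up to 0.406. Hspb1 was higher without overlap in the other 3 main types as well, without passing the test, and the list's medians were 0.14, -0.23, -0.03 and 0.21 in endothelial-like, smooth-muscle-like, fibroblast-like and macrophage-like cells.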
